A study of Mus musculus with 10 samples.

Results

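The genes described here are the ligands Nodal and Gdf3, the coreceptor Tdgf1 (Cripto) and the antagonists Lefty1, Lefty2 and Cer1 of the Nodal signalling pathway. They were taken by name, as every probe set of the deposited expression table whose single gene symbol is one of these 6. The rule found 7 probe sets for 5 of the 6 genes, among 22626 non-control probe sets in all: 2 each for Nodal and Cer1 and 1 each for Gdf3, Tdgf1 and Lefty1. Lefty2 was not analysed here. Expression was measured on 10 Affymetrix arrays, 2 for each of 5 groups of mouse cells. The labels call the cells of every group iPSCs (induced pluripotent stem cells). In 3 of the groups, secondary MEFs (mouse embryonic fibroblasts obtained by way of already reprogrammed cells) had expressed the Yamanaka factors (Klf4, Myc, Pou5f1 and Sox2) for 32 days. One of these, d32, has no fraction in its label, and the others are the fractions positive and negative for Sox2. The fractions belong to a study of RNA FACS, in which cells are sorted by the RNA they contain, so they differ in Sox2 RNA by the way they were made. The other groups were established iPSCs, grown either in 2i (inhibitors of ERK signalling and of GSK3) with serum, or together with MEFs, whose removal before RNA extraction is not mentioned. The labels give neither the strain and age of the source animals nor the way in which the factors were switched on, and whether replicates a and b came from separate cultures is not said. The p-values thus cover the spread between these samples alone, and that spread may be technical. In such bulk samples fewer cells that express a gene and less of its RNA per cell cannot be told apart.

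Nodal is a secreted ligand of the TGF-beta superfamily that signals through activin receptors to Smad2 and Smad3, which act in the nucleus with Smad4 and Foxh1. Tdgf1 is anchored in the cell membrane and lets Nodal and Gdf3 engage the receptors. Lefty proteins are feedback antagonists that the pathway itself switches on, and Cer1 is a secreted antagonist known from anterior visceral endoderm. The pathway patterns the early mouse embryo, and Nodal, Gdf3, Tdgf1 and Lefty1 are known as genes of undifferentiated embryonic stem cells. By RefSeq on GRCm38.p6, Nodal lies at chr10:61417972-61425338, Gdf3 at chr6:122605403-122610087, Tdgf1 at chr9:110939608-110946158 and Cer1 at chr4:82881751-82885151. Lefty1 (chr1:180935022-180938401) and Lefty2 (chr1:180893108-180899107) are close paralogs, and 35914 bases separate them. Whether the Lefty1 probe set also detects Lefty2 RNA was not tested.

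Promoter windows of 3 of the 6 genes (Nodal, Tdgf1 and Cer1) were found in the RefSeq table. Those of Nodal and Tdgf1 are shown because both genes were higher in the Sox2-positive than in the Sox2-negative fraction, as described below. Each is the 250 bases before the annotated start, 5′ to 3′ on the strand of the gene, at chr10:61417722-61417971 on the plus strand for Nodal and chr9:110946159-110946408 on the minus strand for Tdgf1 (GRCm38.p6). Capitals mark matches to GGGNGTGG (a core bound by Kruppel-like factors), ATTGT (a Sox core), ATGNAAAT (an octamer for POU factors) and AATNNACA (a Foxh1 core), searched on both strands. Positions count back from the annotated start, -1 being the base before it.
Nodal: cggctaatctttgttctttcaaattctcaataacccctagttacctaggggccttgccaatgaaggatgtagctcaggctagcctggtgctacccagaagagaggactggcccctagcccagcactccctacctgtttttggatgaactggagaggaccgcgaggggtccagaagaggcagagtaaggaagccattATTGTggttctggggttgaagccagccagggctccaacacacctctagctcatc
Tdgf1: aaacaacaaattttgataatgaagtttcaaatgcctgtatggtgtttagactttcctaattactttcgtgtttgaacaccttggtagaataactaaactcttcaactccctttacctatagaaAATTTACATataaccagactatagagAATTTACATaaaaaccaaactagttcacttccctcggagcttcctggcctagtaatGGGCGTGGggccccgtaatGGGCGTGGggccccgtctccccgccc
The Nodal window held 1 match, an ATTGT that begins at -54. The Tdgf1 window held 2 Kruppel-like matches, GGGCGTGG, beginning at -45 and -26. They lie in a stretch of 19 bases, gtaatgggcgtggggcccc, that occurs directly after itself in tandem. It also held 2 octamer matches on the opposite strand, beginning at -126 and -100, and each of these overlaps a Foxh1 match. The Cer1 window held 0 matches to these 4 motifs. Among all 32851 windows of this length in the table, 15.9% held the Kruppel-like motif, 27.7% the Sox motif, 5.03% the octamer and 10.9% the Foxh1 motif. The short Smad motif AGAC, not marked above, had 3 matches in the Tdgf1 window, 2 in that of Cer1 and 0 in that of Nodal, and 82.9% of all windows held it. The motifs were chosen after the windows had been seen, and a match is a run of letters, not a shown binding site.

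Expression is given as deposited log2 values, in which 1 unit is a 2-fold change. A probe set was tested when it exceeded a value of 4 on at least 2 arrays, which 15252 did, and the word called is used where limma gave an adjusted p, over all of these, under 0.05. The value of 4 is a limit set for this work and no detection call. The arrays fell into 2 sets by their control probe sets. The 3′ probe set for 18S ribosomal RNA read 11.35 to 13.22 on the 6 arrays of the sorted fractions and iPSC with MEFs, and 5.25 to 6.55 on the 4 arrays of d32 and iPSC in 2i and serum. The Actb probe set at the 3′ end exceeded that at the 5′ end by 0.05 to 1.12 and 2.70 to 3.88 in the same order, and the median of all probe sets was 4.26 to 4.33 and 5.28 to 5.36. The labels name 2 amplification kits without saying which sample had which. Between a sorted fraction and d32, or between the iPSC groups, a group and the set of its arrays cannot be told apart, whereas the other comparisons stay within a set. Within the first set, however, the Actb gap was 1.12 and 1.08 in iPSC with MEFs and 0.05 to 0.21 in the fractions, and 18S read 11.35 and 12.82 against 12.92 to 13.22, so these control values move with group there too. The smallest two-sided p that an exact permutation test of 2 against 2 arrays allows is 0.33, so each test rests on the spread that limma pools over all 5 groups, and the number of arrays limits the precision.

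Both ligands, Nodal by its brighter probe set, were lowest in the Sox2-negative fraction and highest in established iPSC. The brighter Nodal probe set (1422058_at) read 6.73 and 8.33 in d32, 7.13 and 7.75 in the Sox2-positive fraction, 4.70 and 5.91 in the Sox2-negative fraction, 9.66 and 9.21 in iPSC in 2i and serum, and 9.24 and 9.19 in iPSC with MEFs. Both Sox2-negative arrays lay below all others, all 4 iPSC arrays lay above the rest, and d32 overlapped the Sox2-positive fraction. The other Nodal probe set (1422057_at) was dim, at 3.41 and 3.19 in d32, 4.53 and 3.81 in the Sox2-positive fraction, 2.72 and 3.26 in the Sox2-negative fraction, 4.79 and 4.41 in iPSC in 2i and serum, and 3.34 and 3.88 in iPSC with MEFs. It passed the limit of 4 on 3 of the 10 arrays. Gdf3, a Vg1-related ligand, read 8.42 and 10.10 in d32, 9.06 and 8.71 in the Sox2-positive fraction, 4.35 and 3.62 in the Sox2-negative fraction, 11.22 and 11.60 in iPSC in 2i and serum, and 10.37 and 10.42 in iPSC with MEFs. Its Sox2-negative values lay at the limit of 4, and those of all other groups were above 8.

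The coreceptor Tdgf1 was bright in 4 of the 5 groups and far lower in the Sox2-negative fraction. It read 10.71 and 11.76 in d32, 10.91 and 11.33 in the Sox2-positive fraction, 5.69 and 7.30 in the Sox2-negative fraction, 11.87 and 11.93 in iPSC in 2i and serum, and 11.40 and 11.62 in iPSC with MEFs. The Sox2-negative arrays stood apart below the other 8, which span 10.71 to 11.93.

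Of the antagonists, Lefty1 varied and Cer1 stayed dim throughout. Lefty1 read 5.79 and 7.26 in d32, 5.82 and 6.63 in the Sox2-positive fraction, 2.12 and 2.05 in the Sox2-negative fraction, 5.69 and 8.38 in iPSC in 2i and serum, and 7.87 and 8.50 in iPSC with MEFs. It was under 4 on both Sox2-negative arrays and above 5 on the other 8. The probe sets of Cer1 read 1.66 to 2.62 (1450256_at) and 1.67 to 2.37 (1450257_at) over all 10 arrays, so neither reached 4 on any array and neither was tested.

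**Figure D1:**
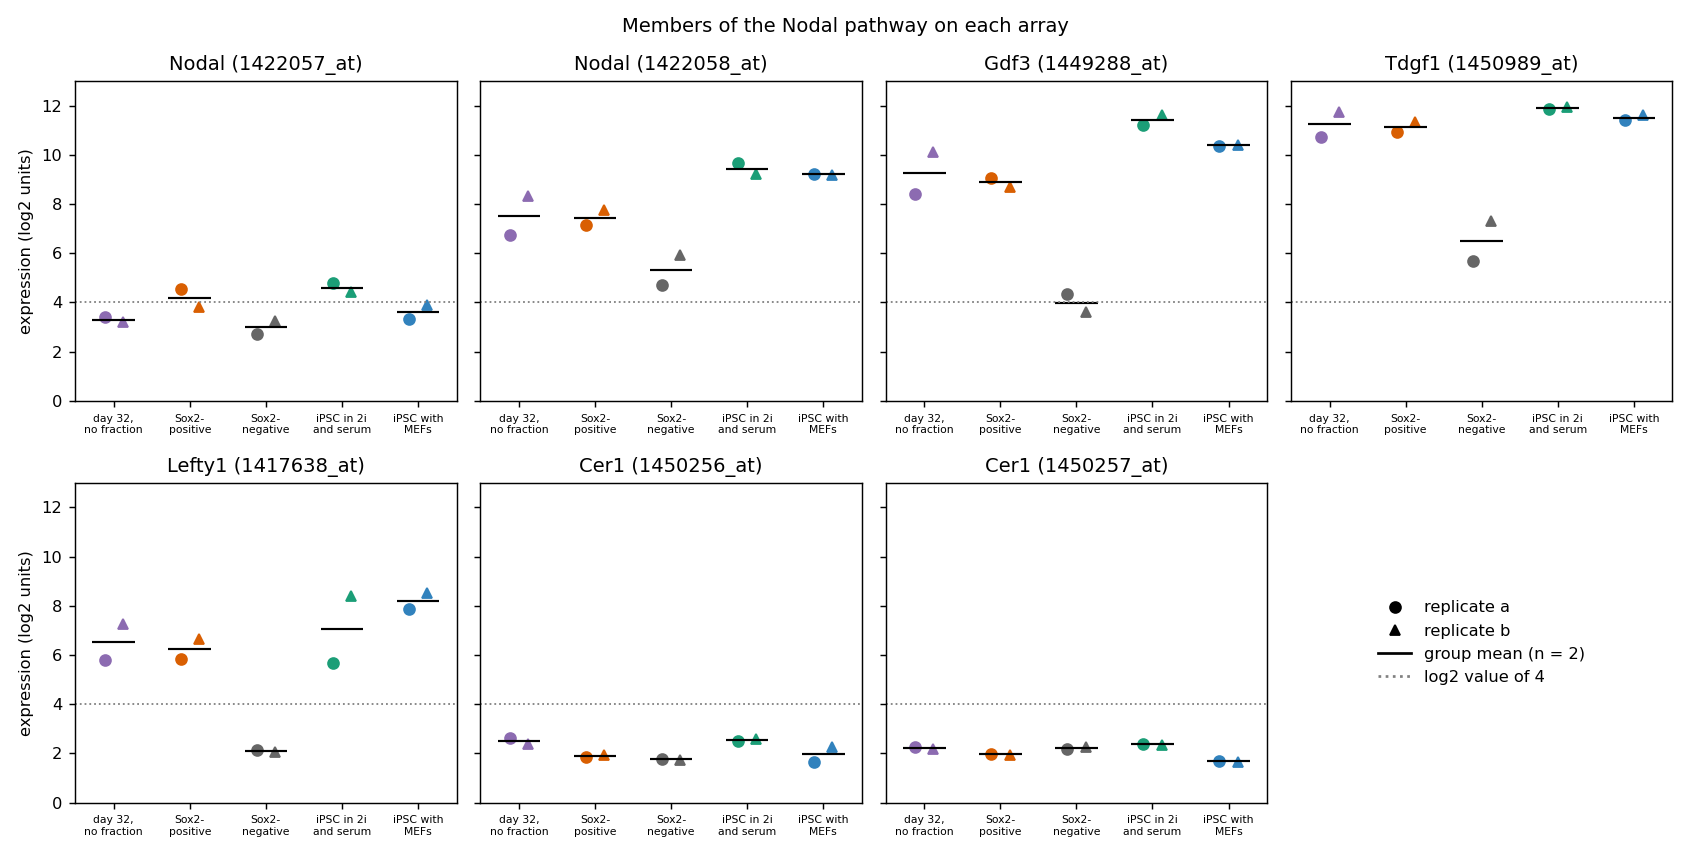
Log2 expression of the 7 probe sets on each of the 10 arrays (circles replicate a, triangles replicate b, bars the mean of 2 arrays), with the value of 4 dotted. Sox2-negative arrays are lowest for the brighter Nodal probe set, Gdf3, Tdgf1 and Lefty1, and both Cer1 probe sets stay under 2.7 everywhere.

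By group mean, the brighter Nodal probe set, Gdf3 and Tdgf1 shared one order from high to low: iPSC in 2i and serum, iPSC with MEFs, d32, the Sox2-positive fraction and the Sox2-negative fraction. Lefty1 had the same order with the iPSC groups exchanged. This order crosses the sets of arrays and turns with the scaling. After each array was centred on its median, iPSC in 2i and serum lay below iPSC with MEFs (by differences of -0.89, -0.09 and -0.71 for Nodal, Gdf3 and Tdgf1), and d32 lay below the Sox2-positive fraction (-1.26, -0.97 and -1.23). The last step of this order was called for all 4 genes, as the comparison of the fractions shows, and neither the step between the iPSC groups nor that between d32 and the Sox2-positive fraction was called for any of these 4 probe sets. The step between iPSC with MEFs and d32 (for Lefty1, between iPSC in 2i and serum and d32) is a neighbouring pair too. For Nodal, Gdf3 and Tdgf1 this pair, iPSC with MEFs and d32, crosses the sets of arrays and was not tested. For Lefty1 the arrays of d32 and iPSC in 2i and serum overlapped.

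In d32 the replicates agreed less well for Nodal (1422058_at), Gdf3, Tdgf1 and Lefty1 than for most probe sets. The dim Nodal probe set did not share this, with replicate a higher by 0.22, a gap that exceeded that of 40.8% of the probe sets. Replicate a of d32 was below replicate b by 1.60 for Nodal (1422058_at), 1.68 for Gdf3, 1.05 for Tdgf1 and 1.47 for Lefty1, and these gaps exceeded those of 97.7%, 98.1%, 93.1% and 97.1% of the tested probe sets between the same 2 arrays. The summed log2 value of 8 pluripotency markers also differed between them, at 81.4 in replicate a and 88.3 in replicate b. In iPSC in 2i and serum, Lefty1 alone of these genes was unsettled, with a gap of 2.69 that exceeded 99.8% of the probe sets, against gaps of 0.06 to 0.45 for Nodal, Gdf3 and Tdgf1. The Sox2-negative arrays differed by 1.21 for Nodal (1422058_at) and 1.61 for Tdgf1, with replicate b higher, and by 0.73 for Gdf3, with replicate a higher. Replicates of iPSC with MEFs had gaps of 0.05 for Nodal (1422058_at) and for Gdf3, 0.22 for Tdgf1, 0.54 for the dim Nodal probe set and 0.63 for Lefty1, the last exceeding that of 87.6% of the probe sets.

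Nodal, Gdf3, Tdgf1 and Lefty1 were all higher in the Sox2-positive than in the Sox2-negative fraction. This comparison sets the cells of day 32 sorted as positive for Sox2 against those sorted as negative. Gdf3 averaged 8.88 ± 0.25 in Sox2-positive and 3.98 ± 0.52 in Sox2-negative cells (SD, n = 2 each), 29.9-fold higher in the positive fraction, with 1 of 2 Sox2-negative arrays above 4 (difference 4.90, SE 0.49, limma adjusted p = 0.00101). Tdgf1 averaged 11.12 ± 0.30 and 6.50 ± 1.14 in the same order, 24.7-fold higher (difference 4.62, SE 0.51, limma adjusted p = 0.00135). Lefty1 averaged 6.22 ± 0.57 in Sox2-positive cells, against 2.08 ± 0.05 in Sox2-negative cells, where it lay under 4, which makes it at least 4.68-fold higher (limma adjusted p = 0.0131). For the brighter Nodal probe set the Sox2-positive mean was 7.44 ± 0.44 and the Sox2-negative mean 5.30 ± 0.86, 4.39-fold higher (difference 2.13, SE 0.55, limma adjusted p = 0.0382). Its other probe set differed by 1.18 in the same direction without passing (limma adjusted p = 0.0579, and 0.0472 after quantile normalization, in a range of 0.0472 to 0.21). All 5 tested probe sets had both Sox2-positive arrays above both Sox2-negative arrays, as did 25.2% of all 15252.

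The tested probe sets of these genes were called higher in 4 of 5 cases, beside 6.13% of all probe sets called higher. The median difference was 4.14 over the 5 probe sets, or 2.23 with Lefty1 and the dim Nodal probe set at their bounds against 4, and -0.01 over all. Gdf3 and Tdgf1 stayed called in every alternative run, with adjusted p values up to 0.0094 and 0.0299. The Nodal call ended on leaving out Sox2-positive replicate a (limma adjusted p = 0.0532) or b (0.16) or Sox2-negative replicate a (0.154), within a range of 0.0242 to 0.16 over all alternatives, and the Lefty1 call on leaving out Sox2-positive replicate b (0.0729, range 0.00363 to 0.0866).

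**Figure D2:**
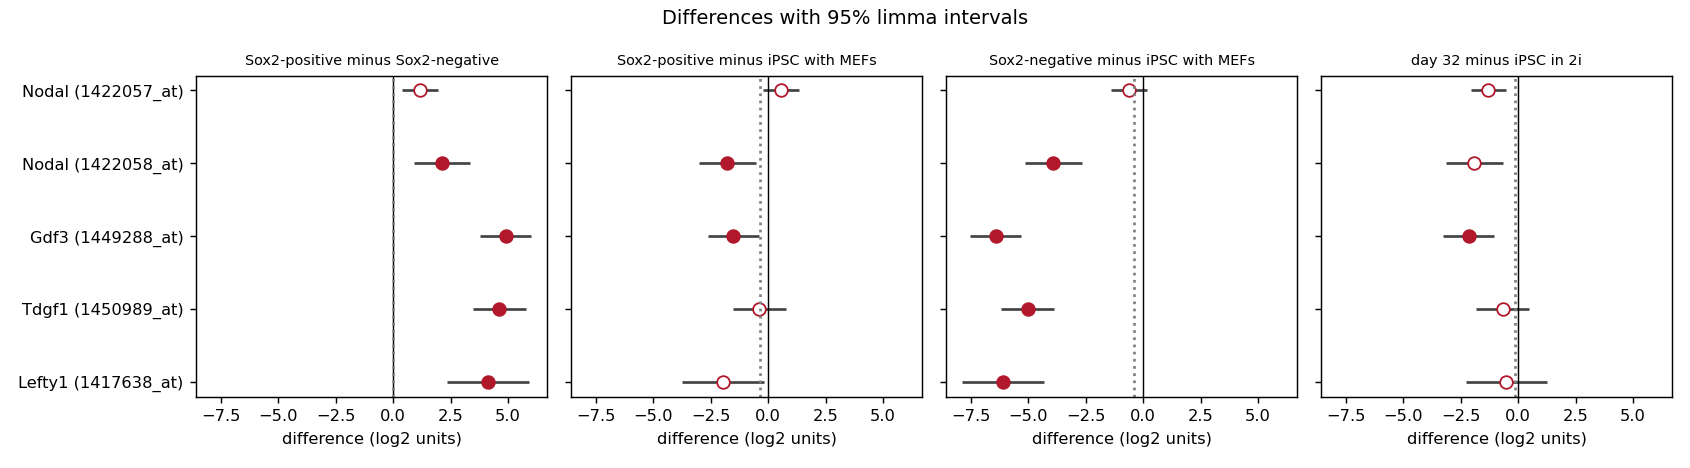
Difference in log2 units (first minus second group) of the 5 tested probe sets in 4 comparisons that stay within a set of arrays, with 95% limma intervals. Filled points passed an adjusted p of 0.05, and the dotted line is the median difference of all 15252 probe sets. Between the fractions 4 points are filled on the right, and against iPSC with MEFs the Sox2-negative fraction has 4 filled points on the left.

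Against established iPSC grown with MEFs, the Sox2-positive fraction was 3.42-fold lower in Nodal (1422058_at) and 2.85-fold lower in Gdf3. Both calls were close to the threshold. The brighter Nodal probe set averaged 7.44 ± 0.44 in Sox2-positive cells and 9.21 ± 0.04 in iPSC with MEFs (SD, n = 2 each), a difference of -1.77 (SE 0.55, limma adjusted p = 0.035). Gdf3 differed by -1.51 (SE 0.49, limma adjusted p = 0.0436). Lefty1 was 1.96 units lower without passing (95% interval -3.73 to -0.19, limma adjusted p = 0.0838). Tdgf1 differed by -0.39, with a 95% interval of -1.54 to 0.76 (limma adjusted p = 0.587). The dim Nodal probe set differed by 0.56, in the other direction (limma adjusted p = 0.237). The Actb gap between 3′ and 5′ probe sets was 0.09 and 0.21 in these fraction arrays and 1.12 and 1.08 in iPSC with MEFs, and its part in the differences was not tested. With 2 of 5 probe sets called lower, the share stood beside 25.2% of all probe sets called lower in this comparison, whose median difference over all probe sets was -0.34. Centring each array on its median ended both calls, with Nodal at -1.50 (limma adjusted p = 0.0673, range over all alternatives 0.0146 to 0.236) and Gdf3 at -1.24 (0.0903, range 0.0158 to 0.414), and quantile normalization brought them to -1.03 and -0.68. Gdf3 lost its call without any of the 4 arrays (0.0918 to 0.153), and Nodal without Sox2-positive replicate a (0.157) or either array of iPSC with MEFs (0.141 for a and 0.125 for b).

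The Sox2-negative fraction was far below the same iPSC in all 4 genes. Gdf3 averaged 3.98 ± 0.52 in Sox2-negative cells and 10.39 ± 0.04 in iPSC with MEFs (SD, n = 2 each), 85.0-fold lower (difference -6.41, SE 0.49, limma adjusted p = 0.000117). Lefty1 was at least 18.2-fold lower (2.08 ± 0.05 against 8.18 ± 0.45, limma adjusted p = 0.000602). Tdgf1 was 32.3-fold lower (difference -5.01, SE 0.51, limma adjusted p = 0.000264) and the brighter Nodal probe set 15.0-fold lower (difference -3.91, SE 0.55, limma adjusted p = 0.000817). The dim Nodal probe set was under 4 in both groups and was not called (limma adjusted p = 0.167). Here too the Actb gap differed, at 0.10 and 0.05 in Sox2-negative cells and 1.12 and 1.08 in iPSC with MEFs, and its part was not tested. In this comparison 4 of 5 probe sets were called lower, beside 31.3% of all, and the median difference of all probe sets was -0.38. These 4 calls held on leaving out any array and in every other alternative, with adjusted p values up to 0.011 for Nodal, 0.00382 for Gdf3, 0.00536 for Tdgf1 and 0.00853 for Lefty1. The comparison shares its iPSC arrays with the preceding one and its Sox2-negative arrays with that of the fractions, so the 3 are not independent.

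Day 32 cells of no named fraction were set against iPSC in 2i and serum, within the other set of arrays. Gdf3 was the only probe set called, at 9.26 ± 1.19 in d32 and 11.41 ± 0.27 in iPSC in 2i and serum (SD, n = 2 each), 4.44-fold lower in d32 (difference -2.15, SE 0.49, limma adjusted p = 0.0374). The Nodal probe sets differed by -1.90 (1422058_at, limma adjusted p = 0.0761) and -1.30 (1422057_at, 0.0588), with both d32 arrays below both iPSC arrays, as in 39.1% of all probe sets. Tdgf1 differed by -0.67 (95% interval -1.82 to 0.49, limma adjusted p = 0.48), and Lefty1 by -0.51 (95% interval -2.28 to 1.26, limma adjusted p = 0.746). Of the 5 probe sets 1 was called lower, beside 2.42% of all. Gdf3 lost the call without d32 replicate a (difference -1.31, limma adjusted p = 0.229), or without replicate a (0.105) or b (0.214) of iPSC in 2i and serum (range over all alternatives 0.0067 to 0.229). Nodal (1422058_at) was called without d32 replicate b (difference -2.71, 0.0252, range 0.0252 to 0.47), with array weights (0.0254) and with the replicate letter as a block (0.048). The dim Nodal probe set was called with array weights (limma adjusted p = 0.0192, range 0.0192 to 0.247). The Lefty1 difference turned to 0.23 without d32 replicate a and to 0.83 without replicate b of iPSC in 2i and serum.

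Comparisons between the sets of arrays are given as values, since group and set cannot be told apart in them. In d32 against the Sox2-positive fraction, the median difference over all probe sets was 1.23, and 60.3% of all were called higher. Nodal (1422058_at), Gdf3, Tdgf1 and Lefty1 differed by 0.09, 0.38, 0.11 and 0.30, with adjusted p values from 0.512 to 0.889 (limma), and these differences turned negative once each array was centred on its median (-1.26, -0.97, -1.23 and -1.05). The dim Nodal probe set was 0.87 lower in d32 (limma adjusted p = 0.0449), beside 10.7% of all probe sets called lower, and lost this call without d32 replicate a (0.0829) or b (0.167) or Sox2-positive replicate a (0.262, range over all alternatives 0.000722 to 0.262). It was also lost with the replicate letter as a block (0.0557), array weights (0.055), an intensity trend (0.0523) and the compared arrays alone (0.0669). Gdf3 was called without d32 replicate a (difference 1.22, limma adjusted p = 0.0264, range 0.0264 to 0.788). Against the Sox2-negative fraction, d32 was higher by 5.28 for Gdf3, 4.74 for Tdgf1, 4.44 for Lefty1 and 2.23 for Nodal (1422058_at), with adjusted p values from 3.59e-05 to 0.00513 (limma), beside a median difference of 1.25 and 61.1% of all probe sets called higher. After centring the first 3 stayed called, at 3.95, 3.41 and 3.11, and Nodal did not, at 0.90 (limma adjusted p = 0.193, range 0.00175 to 0.193).

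Between the iPSC cultures, 2i with serum against MEFs, the bright probe sets were not called. Gdf3 differed by 1.01 (limma adjusted p = 0.102, but 0.0471 with array weights and 0.00772 with the compared arrays alone, in a range of 0.00772 to 0.893), Tdgf1 by 0.39 (0.528), Nodal (1422058_at) by 0.22 (0.743) and Lefty1 by -1.15 (0.228). The dim Nodal probe set was 0.99 higher in 2i with serum (limma adjusted p = 0.0313), beside 49.8% of all probe sets called higher and a median difference of 0.91. It lost the call without replicate a (0.162) or b (0.0533) of iPSC in 2i and serum or replicate a of iPSC with MEFs (0.189, range over all alternatives 0.00852 to 0.815), and centring turned it to -0.12. Lefty1 turned to 0.20 without replicate a of iPSC in 2i and serum and was called lower without replicate b (difference -2.50, limma adjusted p = 0.0116, range 0.0116 to 0.809).

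Among the other genes of the pathway, Foxh1 and Otx2 differed most between the fractions. Of a list of 42 further pathway genes, 36 had a probe set with that single symbol and 27 passed the limit of 4, each represented by its brightest probe set. Between the fractions 5 of 27 were called higher and 0 lower, with a median difference of 0.44 (0.07 with genes at their bounds against 4), beside 6.13% called higher and 4.98% lower of all probe sets. Foxh1, the nuclear partner of Smad2 in Nodal signalling, averaged 7.49 ± 0.16 in Sox2-positive and 3.65 ± 0.50 in Sox2-negative cells (n = 2 each), at least 11.2-fold higher (limma adjusted p = 0.00808), and its other 2 probe sets were also called higher (0.00306 and 0.0163). The homeobox genes Otx2 and Hhex were at least 4.68-fold (limma adjusted p = 0.00899) and at least 2.17-fold higher (0.0309). The inhibitory Smad7 was 2.54-fold higher (limma adjusted p = 0.0478), and the pseudoreceptor Bambi 2.01-fold (0.0461). Receptors of the activin type (Acvr1b, Acvr2a, Acvr2b), the TGF-beta receptors and Smad2 and Smad4 were not called by these probe sets, though another Smad4 probe set differed by -0.99 (limma adjusted p = 0.0483). Without Sox2-positive replicate b only 1 of the 27 was called, Foxh1, and without Sox2-negative replicate a or b 3 were. With array weights or the compared arrays alone 1 was called as well, and over all alternatives the adjusted p of Foxh1 ran up to 0.0509. Otx2 had an adjusted p of 0.0529 without Sox2-positive replicate b, Hhex one of 0.142, 0.108 and 0.0563 without Sox2-positive replicate b and Sox2-negative replicates a and b, and Smad7 one of 0.0837 to 0.142 without any of the 4 arrays.

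Against iPSC with MEFs, the Sox2-positive fraction had 1 of 27 pathway genes called higher and 8 lower (median -0.65, or -0.58 with bounds), and the Sox2-negative fraction 3 higher and 15 lower (median -1.43, or -0.83 with bounds). All probe sets called higher and lower came to 7.49% and 25.2% in the first and to 13.3% and 31.3% in the second. Bmp4, a BMP ligand, was 18.9-fold lower in the Sox2-positive fraction (5.12 ± 0.43 against 9.37 ± 0.13, limma adjusted p = 0.0025) and at least 41.2-fold lower in the Sox2-negative fraction (limma adjusted p = 0.000313). In Sox2-positive cells the phosphatase Ppm1a (6.57-fold), the corepressor Tgif2 (3.54-fold) and the activin binding protein Fst (at least 1.39-fold) were lower, and Drap1, which restrains Foxh1, was 3.88-fold higher (limma adjusted p = 0.0055). In Sox2-negative cells Foxh1 was at least 17.6-fold lower (limma adjusted p = 0.000922), the activin subunit gene Inhbb 10.2-fold with 1 of 2 Sox2-negative arrays above 4 (0.00922), and Otx2 at least 3.16-fold (0.0046). The TGF-beta receptor Tgfbr2 was at least 2.39-fold higher (limma adjusted p = 0.00791), the convertase Furin, which cleaves Nodal precursors, 2.51-fold (0.006), and Drap1 2.26-fold (0.0306). The Sox2-positive count of 9 calls was 3 without replicate a of iPSC with MEFs and 5 after quantile normalization. Without that replicate Drap1 and Tgif2 missed the threshold in the Sox2-positive fraction (0.0523 and 0.0561), as did Drap1 (0.212) and Inhbb (0.0702) in the Sox2-negative fraction. In the Sox2-negative fraction Drap1 also missed it without Sox2-negative replicate a (0.0701) or b (0.0947), Inhbb without Sox2-negative replicate b (0.0521, difference -2.18) and Tgfbr2 without replicate b of iPSC with MEFs (0.0536).

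In d32 against iPSC in 2i and serum, Tgfbr2 was called 6.75-fold higher (limma adjusted p = 0.0421), and Smad7 and the mesendoderm factor Eomes 2.90-fold (0.0429) and 4.81-fold lower (0.0439), with 1 of 2 arrays above 4 in the lower group for Tgfbr2 and Eomes. This made 1 higher and 2 lower of 27, beside 3.93% and 2.42% of all probe sets. All 3 calls were lost without d32 replicate a (0.3 for Tgfbr2, 0.287 for Smad7 and 0.328 for Eomes) and without either replicate of iPSC in 2i and serum (0.104 to 0.238). Between the sets of arrays, 18 pathway genes were called higher and 1 lower in d32 than in the Sox2-positive fraction, 23 and 0 in d32 than in the Sox2-negative fraction, and 16 and 2 in iPSC in 2i and serum than in iPSC with MEFs. All probe sets called lower came to 11.5% in the last of these. Median centring changed the counts to 6 and 4, 10 and 3, and 4 and 6. Furin led in each, with differences of 5.29, 4.76 and 5.25, and 3.94, 3.44 and 4.14 after centring. Next in d32 over the Sox2-positive fraction came Tgfbr2 (3.80), Ppm1a (3.49) and the type I receptor Tgfbr1 (2.97), while the corepressor Tgif1 was lower (-1.62). In d32 over the Sox2-negative fraction they were Foxh1 (4.16), Inhbb (4.05) and Ppm1a (3.18). In iPSC in 2i and serum over iPSC with MEFs, Drap1 (3.31), Eomes (2.31) and the receptor Acvr2a (2.22) were higher and Bmp4 (-3.33) and Tgif2 (-1.03) lower. Of these, Eomes was not called after centring (limma adjusted p = 0.0986) or without replicate b of iPSC with MEFs (0.0509), nor Tgif2 on leaving out any array (0.111 to 0.132), nor Tgif1 without d32 replicate a (0.0633). Without d32 replicate b the first count was 11 and 1, and without any 1 array the last was 9 or 10 and 1.

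**Figure D3:**
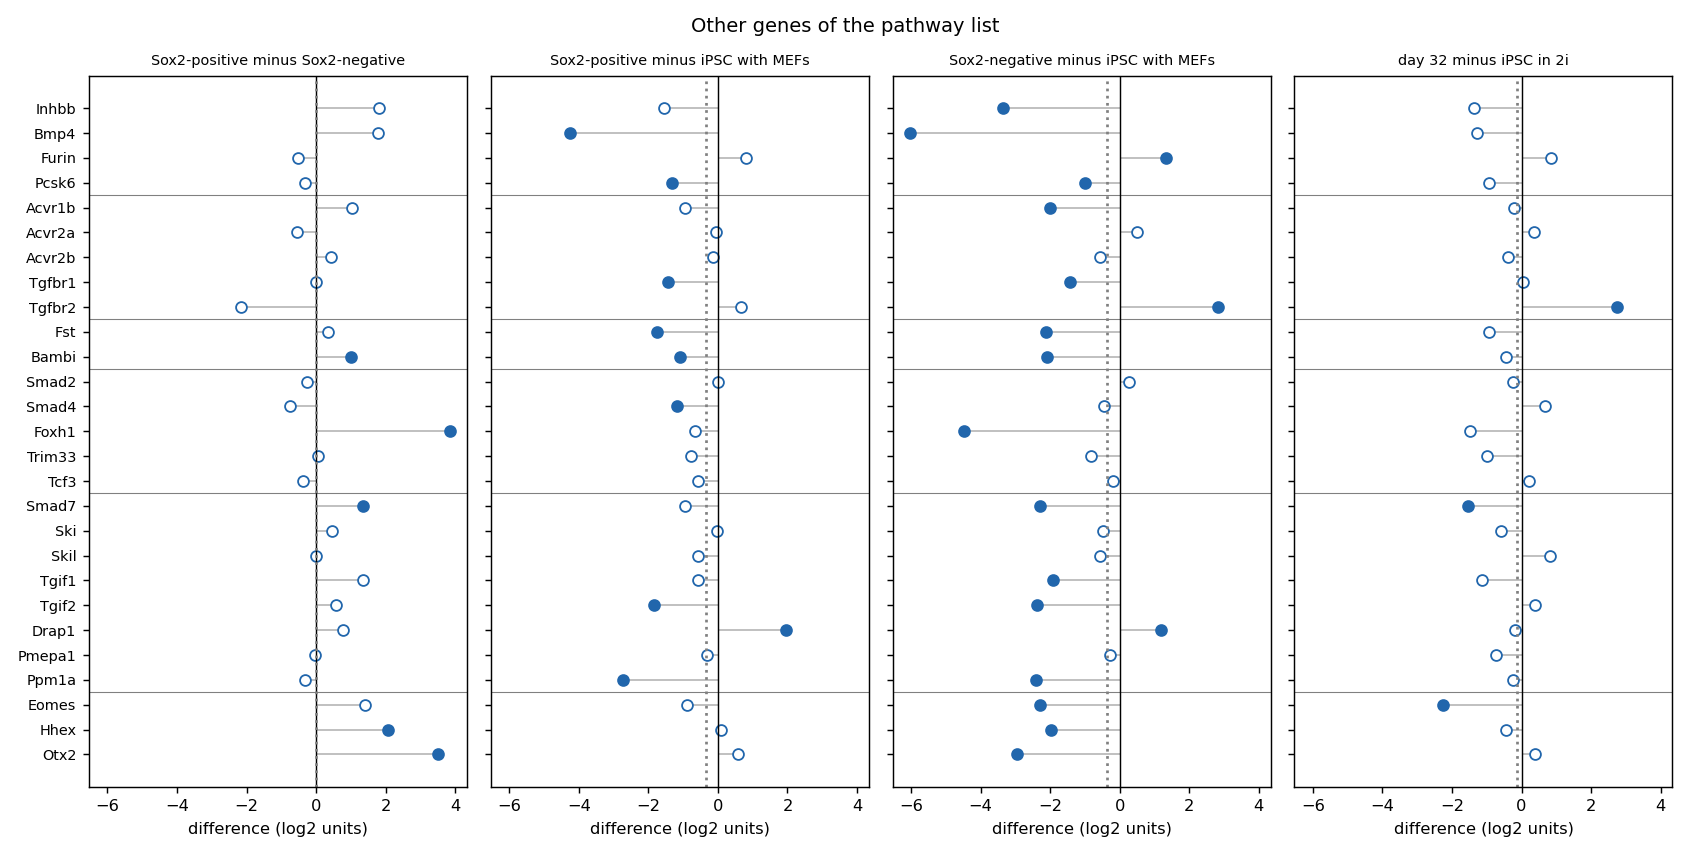
Difference in log2 units (first minus second group) of 27 other pathway genes in 4 comparisons, in blocks from top to bottom of ligands and convertases, receptors, other antagonists, mediators, feedback genes and repressors, and targets. Filled points passed an adjusted p of 0.05 and the dotted line is the median of all probe sets. Foxh1 and Otx2 lie farthest to the right between the fractions, and Bmp4 farthest to the left in both comparisons with iPSC with MEFs.

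The genes most alike to each member were found as those with the smallest root mean square difference over the 10 arrays, after each of 13840 candidate probe sets was centred on its own mean. The 10 arrays share 5 groups and 2 sets of arrays, so likeness says only that profiles run together. Nodal (1422058_at) was nearest to Col18a1, a basement membrane collagen (0.27 log2 units), Taf7, a subunit of the general transcription factor TFIID (0.35), and Ttpa, a vitamin E transfer protein (0.41). Its own values vary by 1.57 around their mean. Gdf3 (variation 2.59) was nearest to the phospholipase Pla2g1b (0.43), the uridine phosphorylase Upp1 (0.48) and the RNA-binding protein Lin28a (0.48). Tdgf1 (2.05) was nearest to Aplp1 (0.36), Ifitm1 (0.38) and E-cadherin, Cdh1 (0.53). Lefty1 (2.20) was nearest to the fatty acid transporter Slc27a2 (0.47), Klhl13 (0.58) and Mycn (0.64). Among the members themselves the distances ran from 0.92 between Tdgf1 and Lefty1 to 1.30 between Nodal and Gdf3. The distances of the nearest genes are smaller by selection, being the smallest among 13840 candidates. Setting the 2 kinds of distance side by side therefore does not measure how alike the members are. Slc27a2 also had the split of Lefty1 between the replicates of iPSC in 2i and serum, at -0.21 and 2.54 around its mean, where Lefty1 stood at -0.32 and 2.37.

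**Figure D4:**
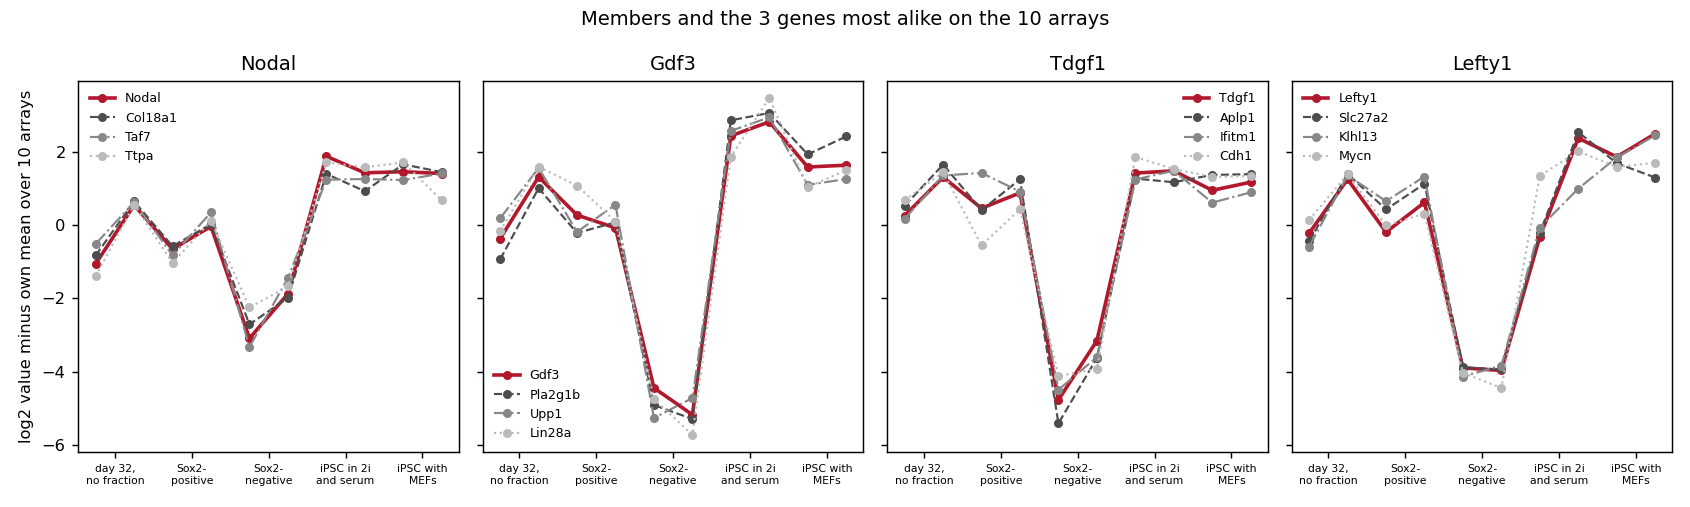
Log2 values of each member (thick red line) and its 3 most alike genes (grey lines), each minus its own mean over the 10 arrays, with replicates a and b of each group side by side. Profiles dip together in the Sox2-negative fraction, down to between -2 and -6.

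The summed pluripotency markers were lowest in the Sox2-negative fraction, as were the brighter Nodal probe set, Gdf3, Tdgf1 and Lefty1. This low point was not particular to them. The summed endoderm markers and the summed mesoderm and primitive streak markers were lowest there too. The summed fibroblast markers were lowest in the Sox2-positive fraction. All 8 pluripotency markers (Pou5f1, Nanog, Sox2, Zfp42, Esrrb, Sall4, Utf1 and Fbxo15) were above 4 on every array outside the Sox2-negative fraction, where 6 and 5 of 8 were. Their summed log2 value was 81.4 and 88.3 in d32, 77.6 and 80.1 in the Sox2-positive fraction, 48.2 and 48.6 in the Sox2-negative fraction, 90.4 and 91.8 in iPSC in 2i and serum, and 83.6 and 84.1 in iPSC with MEFs. The sort itself set the fractions apart in Sox2, which read 9.46 and 10.45 in the positive and 4.45 and 4.13 in the negative fraction. Although its label calls these cells iPSCs too, the Sox2-negative fraction had Zfp42 under 4 on both arrays (2.47 and 3.27) and Utf1 as well (3.43 and 3.52). Nanog (8.86 and 7.92), Sall4 (8.24 and 9.44) and Fbxo15 (6.47 and 6.02) stayed above 4 there. Pou5f1 read 10.06 and 11.11, but it is among the factors these cells had been made to express, and the origin of its RNA was not tested. Of 12 fibroblast markers 7 and 7 were above 4 in d32, 1 and 1 in the Sox2-positive fraction, 4 and 5 in the Sox2-negative fraction, 2 and 3 in iPSC in 2i and serum, and 4 and 3 in iPSC with MEFs. Their sums were 58.7 and 57.4, 33.2 and 29.1, 45.1 and 45.0, 34.3 and 43.8, and 39.9 and 39.3 in the same order. On the deposited scale they were thus highest in d32. The arrays of d32 and of iPSC in 2i and serum had the higher medians (5.28 to 5.36 against 4.26 to 4.33). Sums and counts were not centred, so for every marker list group and set cannot be told apart between the sets of arrays. Lum, Postn and Dcn stayed under 4 on all 10 arrays. S100a4 read 8.07 and 7.33 in d32, 2.48 and 2.18 in the Sox2-positive fraction, 6.82 and 6.96 in the Sox2-negative fraction, 2.27 and 3.79 in iPSC in 2i and serum, and 2.77 and 2.67 in iPSC with MEFs. Col1a1 reached 7.49 and 7.43 in iPSC with MEFs, Col3a1 5.69 and 5.79 in d32, and Prrx1 8.42 and 4.46 in the Sox2-negative fraction, against 5.30 and 1.96 for Prrx1 in the Sox2-positive fraction.

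Endoderm, a known source of Lefty1 and Cer1 in the embryo, was followed with 13 markers, of which Hhex and Foxa2 are also in the pathway list. They summed to 51.9 and 60.5 in d32, 43.4 and 43.9 in the Sox2-positive fraction, 32.2 and 35.2 in the Sox2-negative fraction, 50.7 and 52.7 in iPSC in 2i and serum, and 36.2 and 35.8 in iPSC with MEFs. Afp, Ttr, Apoa1 and Foxa2 were under 4 on all 10 arrays. Apoe read 5.76 and 5.95 in the Sox2-positive and 3.27 and 3.44 in the Sox2-negative fraction, and reached 8.28 and 7.47 in iPSC in 2i and serum. Cubn read 5.67 and 6.92 and Gata4 4.85 and 5.54 in d32, and Hhex was above 4 on every array outside the Sox2-negative fraction, up to 6.73. Of the 13 markers 6 and 6 exceeded 4 in d32, 4 and 3 in the Sox2-positive fraction, 0 and 1 in the Sox2-negative fraction, 3 and 4 in iPSC in 2i and serum, and 2 and 2 in iPSC with MEFs. These sums and counts were not centred either. The 7 measured mesoderm and primitive streak markers, of which Eomes, Mixl1 and Gsc are also in the pathway list, summed to 16.9 to 27.6 over the arrays, also without centring. Their sums were 22.4 and 24.1 in d32, 18.5 and 18.2 in the Sox2-positive fraction, and 16.9 and 17.9 in the Sox2-negative fraction. They were 27.0 and 27.6 in iPSC in 2i and serum, and 23.1 and 22.2 in iPSC with MEFs. At most 3 of 7 were above 4, and Gsc, Fgf8, Wnt3 and Mesp1 were under 4 throughout. The part of these cell type differences in the values of Nodal, Gdf3, Tdgf1 and Lefty1 was not tested.

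**Figure D5:**
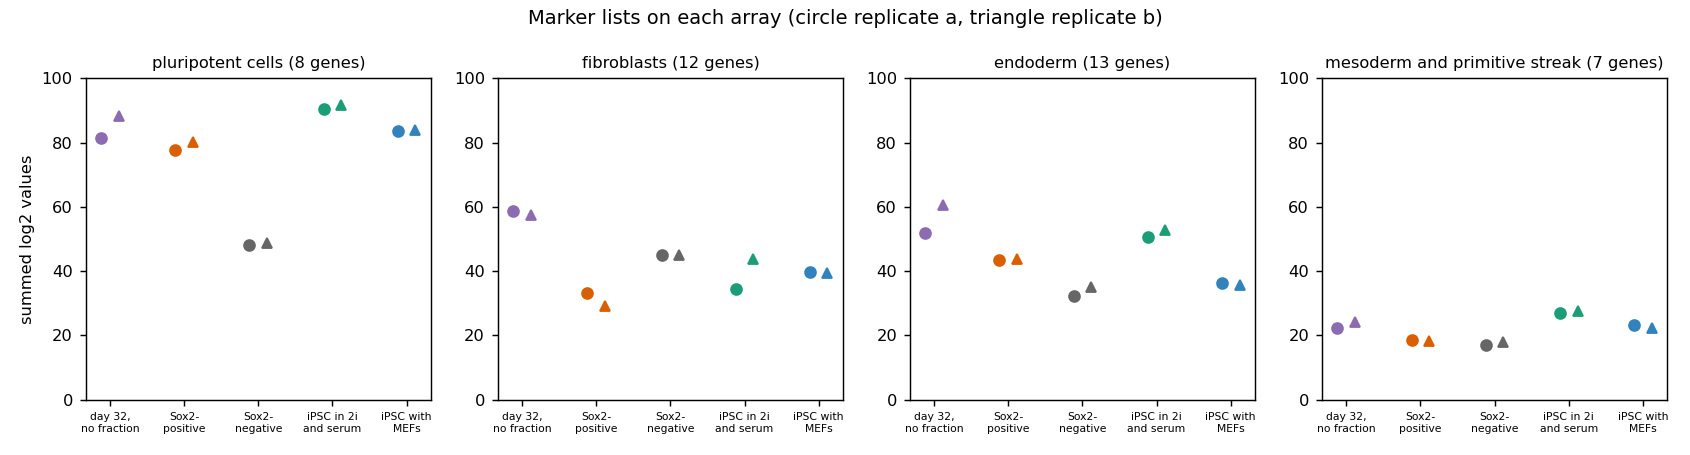
Summed log2 values of 4 marker lists on each array (circles replicate a, triangles replicate b). Pluripotency markers sum to 48.2 and 48.6 in the Sox2-negative fraction and to 77.6 or more on every other array.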

How the data were processed

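Values were taken from the deposited series table unchanged. The log2 expression values were made by the authors with GCRMA and the affy package, per the submitters' processing notes, with versions not given in the sources used here, and whether the arrays were normalized jointly is not stated there. RNA was extracted with Trizol and amplified with NuGEN kits, per the labels. Of 22690 probe sets, 64 were AFFX controls. Gene symbols came from the platform annotation: 20380 of the other 22626 had 1 symbol, 691 several and 1555 none. Probe sets above 4 on at least 2 arrays (15252) were fitted with limma 3.58.1 in R 4.3.3, with a mean per group over all 10 arrays, 7 contrasts and empirical Bayes (residual degrees of freedom 5, prior 4.18). P-values were adjusted by Benjamini-Hochberg over all fitted probe sets. Where no array of the lower group exceeded 4, the fold is a bound against 4, written as at least so many fold. The script was tested on simulated data. The members, gene lists, motifs and tests were chosen with earlier results of these data known. Of the pathway list, the 4 largest called rises and falls of each comparison are named. Bambi and the second Smad4 probe set were named after their values had been seen, the first because only 5 genes were called. The labels do not say whether the replicate letters pair the samples. Correlations of the a minus b differences between groups ran from -0.064 to 0.308. The highest were 0.308 between d32 and the Sox2-positive fraction and 0.198 between d32 and the Sox2-negative fraction. Alternatives changed the filter, the scaling, the weights, the variance prior, the arrays fitted and the replicate letter. Plots used matplotlib 3.10.9 (Python 3.11.15).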

Additional observations from a re-analysis of the deposited data

How the results depend on the processing

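The alternatives left the directions of all called differences of the bright member probe sets in place, and the calls of Gdf3 and Tdgf1 between the fractions and of Nodal (1422058_at), Gdf3, Tdgf1 and Lefty1 between the Sox2-negative fraction and iPSC with MEFs held in each of them. Between the fractions Nodal (1422058_at) also missed the threshold with array weights (limma adjusted p = 0.121), the compared arrays alone (0.113) and no filter (0.0638), and Lefty1 with array weights (0.0866). In d32 against iPSC in 2i and serum Gdf3 missed it with the compared arrays alone (0.108) and no filter (0.0607). The number of probe sets called between the fractions, 1695, was 1076 with 1 probe set per gene, 496 with array weights, 308 with the compared arrays alone and 705 to 1776 on leaving out an array. For the Sox2-positive fraction against iPSC with MEFs, 4983 became 3088 per gene, 2962 after quantile normalization (1406 higher and 1556 lower, against 1143 and 3840) and 1822 to 4465 on leaving out an array. For the Sox2-negative fraction, 6816 became 4087 per gene and 4015 to 5912 on leaving out an array. For d32 against iPSC in 2i and serum, 968 became 574 after quantile normalization, 2114 with array weights, 314 with the compared arrays alone and 127 to 882 on leaving out an array. Between the sets of arrays, 1 probe set per gene gave 6263 for d32 against the Sox2-positive fraction (10835 at first), 6404 against the Sox2-negative fraction (10940) and 5253 for the iPSC groups (9350), where quantile normalization gave 6182 (3215 higher and 2967 lower, against 7598 and 1752). Fewer features were tested per gene, and for the other settings the cause was not tested.

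Some small differences changed sign. Quantile normalization gave 0.32 for Tdgf1 in the Sox2-positive fraction against iPSC with MEFs. In d32 against the Sox2-positive fraction it gave -1.32, -0.88, -0.52 and -1.03 for Nodal (1422058_at), Gdf3, Tdgf1 and Lefty1, and median centring -1.26, -0.97, -1.23 and -1.05. Leaving out an array there gave -0.71 to 0.89, -0.47 to 1.22, -0.41 to 0.64 and -0.43 to 1.03 (-0.435 to 1.035 unrounded for Lefty1). Against the Sox2-negative fraction the dim Nodal probe set turned to -0.28 and -1.01 under these scalings (limma adjusted p = 0.0343 for the second). Between the iPSC groups, quantile normalization gave -0.45 for Nodal (1422058_at), and median centring gave -0.12 for the dim Nodal probe set, -0.89 for the other, -0.09 for Gdf3 and -0.71 for Tdgf1. Leaving out an array gave -0.005 to 0.45 for Nodal (1422058_at) and -2.50 to 0.20 for Lefty1 between the iPSC groups, and -1.85 to 0.83 for Lefty1 in d32 against iPSC in 2i and serum. The cause of these turns was not tested. The median difference of all probe sets in the comparisons between sets of arrays was 0.91 to 1.25, which centring removes by construction.

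With the replicate letter as a block, that is with a paired fit, the counts were 1865 between the fractions, 4971 and 6785 for the fractions against iPSC with MEFs, 1104 for d32 against iPSC in 2i and serum, and 10893, 11014 and 9357 between the sets of arrays. This replicate block added a call for Lefty1 in the Sox2-positive fraction against iPSC with MEFs (limma adjusted p = 0.0279, range over all alternatives 0.0187 to 0.293). Whether samples with the same letter belong together is not known. Of the correlations between groups 8 of 10 lay under 0.1, and those of d32 with the Sox2-positive and Sox2-negative fractions were 0.308 and 0.198. The number of arrays, 2 per group, limits what can be told apart, and values under 4 rest on background.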
